A study of Caenorhabditis elegans with 32 samples.

Results

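The hsp-16 genes of Caenorhabditis elegans encode small heat shock proteins, and 22G RNA counted on 6 of them is described here in whole worms. The members are hsp-16.1, hsp-16.2, hsp-16.11, hsp-16.41, hsp-16.48 and hsp-16.49, found in the 22G RNA table by their gene identifiers in the WBcel235 annotation. They are 6 of the 46932 genes listed in that table, and all 6 passed the filter on low counts. The study sampled 2 genotypes, WT and hrde-1, at 4 generations from the parental P0 to F3, each under a normoxia or a hypoxia label. It had 2 libraries in each of the 16 groups. The hrde-1 label names the gene of the germline nuclear Argonaute HRDE-1 and no allele, and it is read here as a mutant of that gene. The labels name no strain for WT. Per the labels' protocols, worms at larval stage L4 spent 16 h at 0.1% oxygen and 20 °C before return to ambient oxygen of about 20%. A normoxia or hypoxia label stands on every generation, and which generations were exposed is not stated in the labels. The hypoxia label at F1, F2 and F3 is read here, as an assumption, as descent from exposed P0 animals. Nothing in the labels says whether the 2 libraries of a group came from separate cultures, so p-values measure the spread between libraries, which may be technical. Libraries of successive generations may also come from the same lines, and every fit treats them as independent.

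22G RNA is the class of small RNA that RNA-dependent RNA polymerases of the worm copy from target transcripts, so that each 22G RNA is antisense to its target, starts with G and carries a 5′ triphosphate. Worm-specific Argonautes bind these small RNAs, and HRDE-1 carries them into germline nuclei, where it represses the matching loci and is needed for silencing to be inherited. Small heat shock proteins of the alpha-crystallin family hold unfolding proteins in solution. The hsp-16 genes are nearly silent in unstressed worms and are switched on by the heat shock factor HSF-1. They lie in head-to-head pairs, in which both genes are read outward from a shared promoter.

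Total 22G counts ranged from 438436 to 2578063 per library. The members had few reads, from a lowest count of 0 for hsp-16.2 and hsp-16.41 to a highest of 512 for hsp-16.48, and together they made up 0.0108% to 0.0883% of the 22G counts of a library. In P0 WT normoxia, 22G RNA was 9.27% and 6.15% of all counts in the 4 small RNA classes of the study, and in F2 hrde-1 normoxia 2 it was 14.9%, against 27.0% to 45.9% in the other 29 libraries. Results that use these 3 libraries carry this difference, and its part in them was not tested. Levels are in CPM, a gene's share of the 22G counts of its library on the usual CPM scale, with library sizes scaled by trimmed-mean (TMM) factors, and a gene passes a comparison when edgeR's quasi-likelihood test gives it a Benjamini-Hochberg adjusted p below 0.05 over all genes tested. Since whole worms were sequenced, fewer cells that make a 22G RNA and less of it per cell cannot be told apart.

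Both loci are on chromosome V of WBcel235. hsp-16.2 (WBGene00002016, V:1804334-1804957, minus strand) and hsp-16.41 (WBGene00002018, V:1805178-1805875, plus strand) face away from each other with 220 bp between them. The other 4 genes form a cluster, in the order hsp-16.1 (WBGene00002015, V:9087293-9087782, minus strand), hsp-16.48 (WBGene00002019, V:9088131-9088617, plus strand), hsp-16.49 (WBGene00002020, V:9089280-9089766, minus strand) and hsp-16.11 (WBGene00002017, V:9090077-9090604, plus strand). The gaps in the cluster are 348, 662 and 310 bp, so that hsp-16.1 with hsp-16.48 and hsp-16.49 with hsp-16.11 are divergent pairs, 1 the inverted copy of the other. Each gene has 2 exons, and no other annotated gene overlaps any of the 6. The annotation gives hsp-16.1 and hsp-16.11 a single name, and likewise hsp-16.48 and hsp-16.49, so they were told apart by identifier and RefSeq coordinates. The nearest protein-coding genes on each side held almost nothing. srt-41 and srt-42, chemoreceptor genes 1190 and 1584 bp from the hsp-16.2 and hsp-16.41 pair, had 0 counts in all 32 libraries. Beside the cluster, T27E4.1 at 1740 bp had at most 2.11 CPM and T27E4.7 at 10970 bp at most 7.62 CPM, and neither passed the filter on low counts.

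Per kilobase of annotated exon, the mean 22G level over the 32 libraries was 279 CPM for hsp-16.48, 261 for hsp-16.49, 220.3 for hsp-16.1 and 199 for hsp-16.11. It was 43.6 CPM per kilobase for hsp-16.41 and 40.8 for hsp-16.2. The 4 cluster genes thus stood above the separate pair on the per-length scale, and in plain CPM each of the 4 lay above 85.4% to 88.5% of the 10121 genes tested, against 54.5% and 58.7% for hsp-16.2 and hsp-16.41. Annotated exons are 432 to 476 bases long in the cluster and 578 and 640 in the pair.

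**Figure D1:**
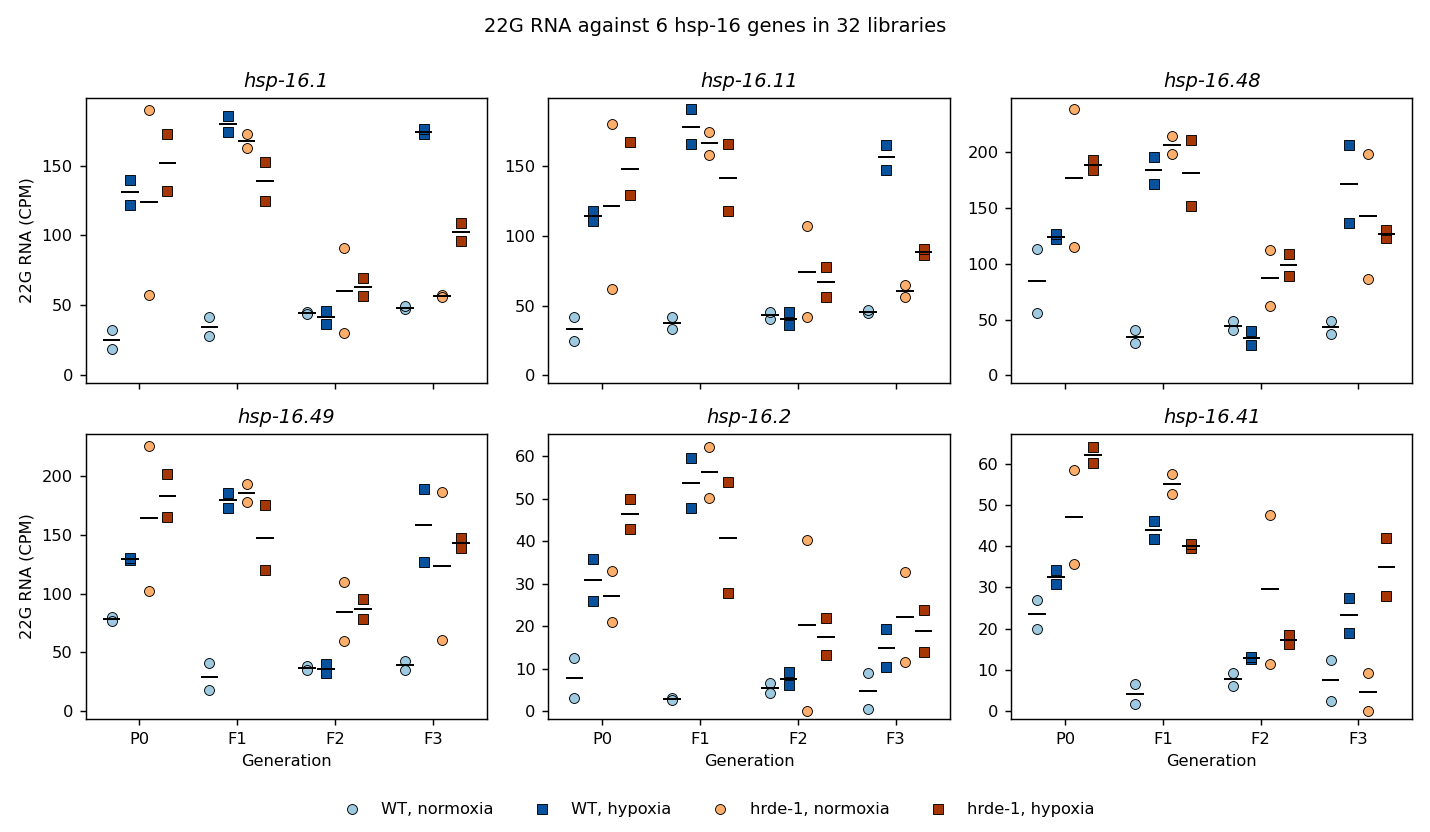
22G RNA against each hsp-16 gene, in CPM on a linear axis, by generation; each point is 1 library and each bar the mean of the 2 libraries of a group. WT normoxia libraries of F1 to F3 and both F2 WT hypoxia libraries sit low for every gene, while the WT hypoxia libraries of F1 and F3 sit higher, most clearly for the 4 cluster genes.

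Summed over the 6 genes, the order of the 16 groups ran from F1 hrde-1 normoxia (874.8 and 800.1 CPM) and F1 WT hypoxia (864 and 774 CPM) at the top to F1 WT normoxia (170.0 and 118 CPM) at the bottom. The lowest 4 groups were the normoxia groups of WT at F1, F2 and F3 together with F2 WT hypoxia (184 and 162 CPM). The highest library of these 4 groups had 205 CPM, and P0 WT normoxia was next with 290.4 and 216 CPM. Of the 15 steps between neighbours in this order, 3 were between groups whose libraries did not overlap: below P0 WT hypoxia, below F2 hrde-1 hypoxia and below P0 WT normoxia. All other neighbouring groups overlapped. For single genes 0 (hsp-16.2) to 5 (hsp-16.41) of the 15 steps were free of overlap.

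The first comparison asks how 22G RNA differed in WT between the hypoxia and normoxia labels at P0, the parental generation. 22G RNA against hsp-16.1 was 32.3 and 18.7 CPM in the normoxia libraries and 139 and 122 CPM in the hypoxia libraries. Its near-identical copy hsp-16.11 held 41.5 and 24.9 CPM under normoxia and 111 and 118 CPM under hypoxia. The groups did not overlap, and both genes passed, with log2 fold changes of 2.33 ± 0.46 (standard error; edgeR, adjusted p = 0.00694) and 1.76 ± 0.42 (adjusted p = 0.0457). Their divergent partners did not pass. hsp-16.48 had 114 and 56.01 CPM under normoxia and 122 and 127 CPM under hypoxia (0.53 ± 0.39, adjusted p = 0.973). hsp-16.49 had 79.9 and 76.8 CPM under normoxia and 128 and 131 CPM under hypoxia (0.72 ± 0.43, adjusted p = 0.887). For both, normoxia at P0 was already above the 3 later normoxia generations. Of the separate pair, hsp-16.2 held 3.07 and 12.4 CPM against 35.8 and 25.9 CPM (2.06 ± 0.96, adjusted p = 0.706) and hsp-16.41 20.0 and 27.0 CPM against 34.1 and 30.9 CPM (0.48 ± 0.74, adjusted p = 1). Thus 2 of 6 members passed where 0.702% of all genes did in either direction, as such shares are counted throughout, and both hypoxia libraries lay above both normoxia libraries for 6 of 6 members and for 29.2% of all genes. These calls used the P0 WT normoxia libraries with their low share of 22G RNA. Scaled instead to the sum of the 4 small RNA classes, 6 of 6 members passed, at 3.15 to 4.97 on the log2 scale, where the all-gene median was 2.72 in place of 0.05. Leaving out P0 WT normoxia 2 or P0 WT hypoxia 1 left 0 members past the threshold, and leaving out P0 WT normoxia 1 or P0 WT hypoxia 2 left only hsp-16.1, whose adjusted p was 0.0325 to 0.259 over these 4 fits, against 0.139 to 0.742 for hsp-16.11.

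At F1 the WT difference between the labels covered the whole cluster. Under normoxia hsp-16.1 held 41.6 and 28.1 CPM, and under hypoxia 185 and 174 CPM. For hsp-16.11 the values were 42.2 and 33.4 CPM against 191 and 166 CPM. In the middle of the cluster, hsp-16.48 rose from 40.4 and 28.8 CPM to 196 and 172 CPM and hsp-16.49 from 40.99 and 18.1 CPM to 186 and 173 CPM. All 4 cluster genes passed, and every hypoxia library was far above both normoxia libraries. Their log2 fold changes were 2.36 ± 0.41 for hsp-16.1 and 2.23 ± 0.39 for hsp-16.11 (edgeR, adjusted p = 0.00775 for both), 2.41 ± 0.40 for hsp-16.48 and 2.59 ± 0.44 for hsp-16.49 (adjusted p = 0.00691 for both). The separate pair had larger fitted values with wider errors. hsp-16.2 held 3.01 and 2.67 CPM under normoxia and 59.5 and 47.9 CPM under hypoxia, a log2 fold change of 4.19 ± 0.96 (adjusted p = 0.0785). hsp-16.41 held 1.81 and 6.69 CPM against 46.1 and 41.8 CPM, 3.36 ± 0.81 (adjusted p = 0.108). Neither passed, although their groups did not overlap. In all, 4 of 6 members passed against 0.168% of all genes, and for 6 of 6 both hypoxia libraries lay above both normoxia libraries, against 22.4% of all genes. DESeq2 passed 6 of 6, as did edgeR without the F3 libraries, whereas 0 passed when any 1 of the 4 libraries compared (normoxia 1 or 2, hypoxia 1 or 2) was left out. In those 4 fits the cluster genes kept log2 fold changes of 2.1 to 3.3, with adjusted p from 0.0535 to 0.274, and with the 4-class library size only 1 member passed.

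At F2 the WT libraries of the 2 labels had like levels. hsp-16.1 held 45.3 and 43.7 CPM under normoxia and 46.3 and 36.8 CPM under hypoxia. hsp-16.49 held 38.7 and 35.2 CPM under normoxia and 40 and 32.4 CPM under hypoxia, and hsp-16.2 6.67 and 4.24 CPM against 9.12 and 6.24 CPM. These hypoxia libraries sat at the level of WT normoxia, and the log2 fold changes of the 6 genes ran from -0.41 (hsp-16.48) to 0.74 (hsp-16.41). The range of 2 standard errors to each side was -0.92 to 0.72 for hsp-16.1, -1.21 to 0.40 for hsp-16.48 and -0.90 to 0.84 for hsp-16.49. The F1 fitted values of these genes lay outside it but have errors of their own. The change from F1 to F2 itself did not pass for these genes (edgeR, adjusted p from 0.387 to 0.731). For hsp-16.2 the range was -1.36 to 2.34 and for hsp-16.41 -0.81 to 2.29. With edgeR 0 of 6 members passed and 0 had an unadjusted p below 0.05, DESeq2 passed 0 of the 4 cluster genes (it gave hsp-16.2 and hsp-16.41 no adjusted p), and 0% of all genes passed. Only hsp-16.41 had both hypoxia libraries above both normoxia libraries and only hsp-16.48 had both below, against 19.2% of all genes in the upward order.

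At F3 the cluster genes again differed between the labels in WT. hsp-16.1 was at 47.1 and 49.9 CPM in F3 WT normoxia and 173 and 176 CPM in F3 WT hypoxia. hsp-16.48 was at 48.9 and 37.4 CPM and 207 and 137 CPM in the same groups. The copies hsp-16.11 (44.7 and 46.7 CPM against 147 and 165 CPM) and hsp-16.49 (42.9 and 34.9 CPM against 189 and 127 CPM) showed the same order. Levels of the 4 cluster genes under hypoxia were close to those of F1 WT hypoxia, and no group overlapped its normoxia counterpart. All 4 passed, with log2 fold changes of 1.84 ± 0.40 (hsp-16.1; edgeR, adjusted p = 0.0405), 1.77 ± 0.38 (hsp-16.11), 1.99 ± 0.39 (hsp-16.48; adjusted p = 0.03) and 2.02 ± 0.43 (hsp-16.49). The separate pair stayed lower under hypoxia than at F1, with 10.5 and 19.4 CPM for hsp-16.2 and 18.99 and 27.5 CPM for hsp-16.41. Against 8.94 and 0.623 CPM and 12.5 and 2.49 CPM under normoxia their log2 fold changes were 1.60 ± 0.89 (adjusted p = 0.477) and 1.61 ± 0.75 (adjusted p = 0.371). So 4 of 6 members passed against 0.346% of all genes, and 6 of 6 were free of overlap in the upward order against 16.6%. The 4 calls held without F3 WT hypoxia 2, and 0 members passed without F3 WT hypoxia 1, F3 WT normoxia 1 or F3 WT normoxia 2, with the 4-class library size, or when only the compared groups were fitted.

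**Figure D2:**
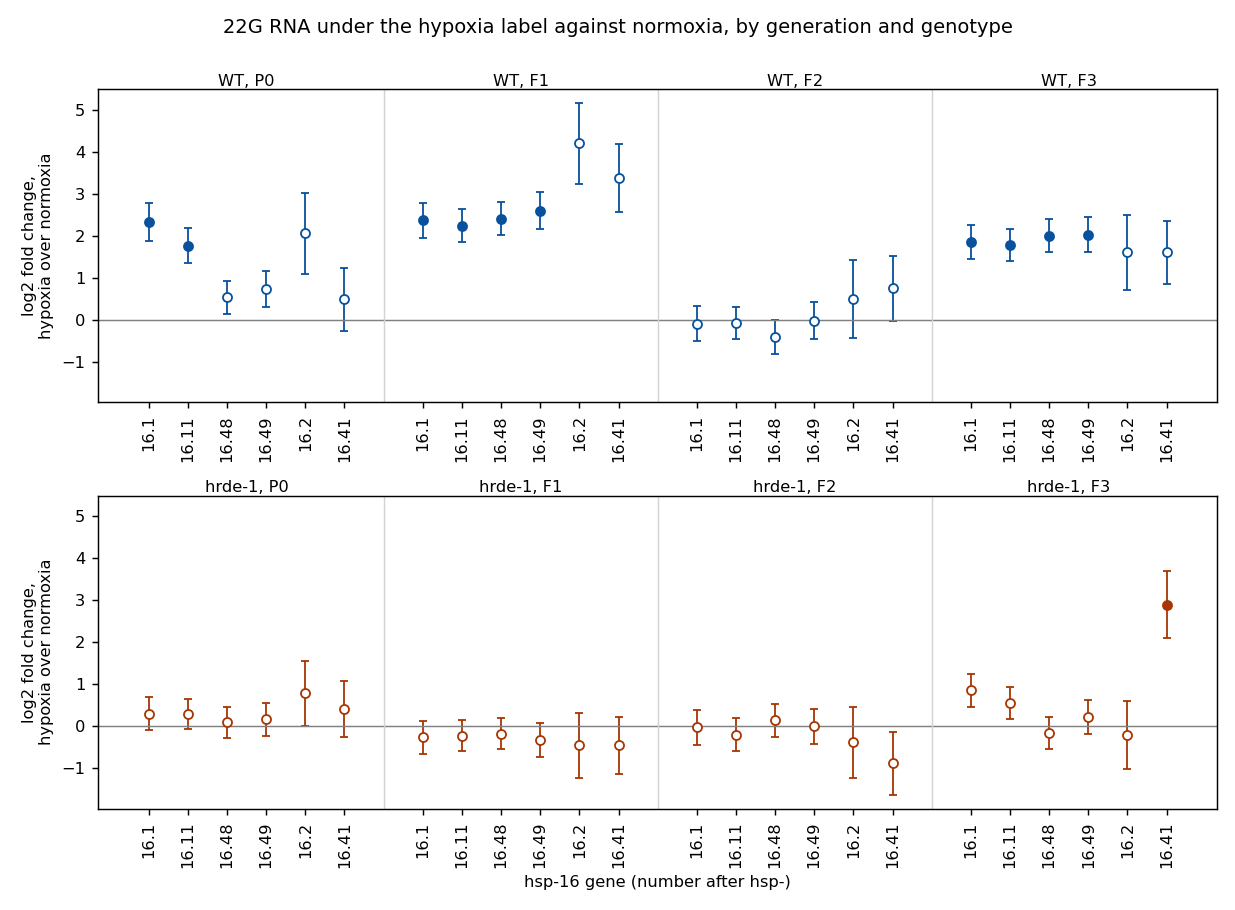
Log2 fold change of 22G RNA, hypoxia over normoxia label, for each hsp-16 gene by generation, with WT above and hrde-1 below; bars are 1 standard error, filled points passed the test and open points did not. In WT the values run from -0.41 to 0.74 at F2 and from 0.48 to 2.33 at P0, and all are above 0 at F1 and F3. In hrde-1 only hsp-16.41 at F3 passed.

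Taken over the 12 WT libraries of F1 to F3 with generation as a term, 5 of 6 members passed against 5.79% of 7312 genes tested. The log2 fold changes were 2.104 ± 0.57 for hsp-16.2, 1.88 ± 0.44 for hsp-16.41, 1.59 ± 0.39 for hsp-16.49, 1.42 ± 0.33 for hsp-16.1 and 1.36 ± 0.30 for hsp-16.11 (edgeR, adjusted p from 0.0205 to 0.0426). hsp-16.48, at 1.42 ± 0.41, had an adjusted p = 0.0722. The mean over generations includes the low F2 values. Without generation F1, 0 members passed, without F2, 4 and without F3, 2, and 0 passed without F3 WT normoxia 2. Leaving out any other F1 or F3 WT library left 1 or 2.

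Whether the response itself changed between neighbouring generations was tested in the fit of all 16 groups. From P0 to F1 in WT, the response of hsp-16.48 was higher by 1.87 ± 0.55 and that of hsp-16.49 by 1.87 ± 0.60 (log2 scale), and from F1 to F2 the change of the response ran from -3.71 (hsp-16.2) to -2.31 (hsp-16.11). From F2 to F3 it ran from 0.87 (hsp-16.41) to 2.40 (hsp-16.48). With edgeR none of these WT differences passed: members with an unadjusted p below 0.05 numbered 3, 6 and 4 of 6 in turn, DESeq2 passed 0 (of 4 with an adjusted p), 1 and 0, and 0.188%, 0% and 0% of all genes passed. The smallest adjusted p was 0.387, for hsp-16.48 from F1 to F2. The 3 steps share their middle libraries and are not independent. A fit of only the compared groups passed 3 members from P0 to F1 and 5 from F1 to F2.

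In hrde-1, 22G RNA against the hsp-16 genes was mostly high under both labels. At P0, hsp-16.1 held 189.9 and 57.2 CPM under normoxia and 132 and 172 CPM under hypoxia. The 2 normoxia libraries differed widely, replicate 1 being the highest of all 32 for hsp-16.1, hsp-16.48 and hsp-16.49. At F1 hsp-16.1 held 172 and 163 CPM under normoxia and 153 and 125 CPM under hypoxia, and hsp-16.48 held 215 and 198 CPM and 211 and 151.8 CPM. Here both hypoxia libraries lay below both normoxia libraries for hsp-16.1, and the labels overlapped for hsp-16.48. At F2 the values of hsp-16.1 were 90.8 and 30.0 CPM under normoxia and 56.4 and 69.5 CPM under hypoxia, where normoxia 2 is the shallow library with the low share of 22G RNA. The log2 fold changes, hypoxia over normoxia, ran from 0.09 to 0.78 at P0, from -0.46 to -0.19 at F1 and from -0.88 to 0.14 at F2. With edgeR 0 of 6 members passed at each of these generations, 0 had an unadjusted p below 0.05, DESeq2 passed 0 of 6 at P0 and 0 of the 4 cluster genes, the only members it gave an adjusted p, at F1 and F2, and 0.711%, 0.346% and 0% of all genes passed. Members free of overlap in the upward order were 2, 0 and 0, against 24.4%, 22% and 21.9% of all genes. In the downward order they were 0, 3 (hsp-16.1, hsp-16.41 and hsp-16.49) and 0. The share of all genes in the downward order was not counted.

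At F3 in hrde-1, 1 member passed. hsp-16.41 was at 0 and 9.17 CPM under normoxia and 41.9 and 27.9 CPM under hypoxia, a log2 fold change of 2.89 ± 0.80 (edgeR, adjusted p = 0.0129). The count of 0 in F3 hrde-1 normoxia 1 allows up to 1.85 CPM (3 counts), so this fitted value is no bound. Its divergent partner hsp-16.2 overlapped between the labels, with 11.7 and 32.7 CPM under normoxia and 23.8 and 13.9 CPM under hypoxia (-0.22 ± 0.81, adjusted p = 0.93). For hsp-16.1 the libraries stood at 57.2 and 56.2 CPM and 95.7 and 109 CPM (0.85 ± 0.40, adjusted p = 0.127). In the upward order 3 members were free of overlap, against 21.7% of all genes. The single call is to be read against 21.6% of all genes that passed in this comparison, and against 0 when only the compared groups were fitted. It was lost without F3 hrde-1 hypoxia 1, and hsp-16.49 passed in addition without F3 hrde-1 normoxia 2. The change of the hrde-1 response from F2 to F3 also passed for hsp-16.41 (3.78 ± 1.09, adjusted p = 0.0311), 1 of 6 members against 9.42% of all genes. That call was lost without F2 hrde-1 normoxia 1, either F2 hrde-1 hypoxia library or F3 hrde-1 hypoxia 1. For the steps from P0 to F1 and from F1 to F2 in hrde-1, edgeR passed 0 of 6 members, DESeq2 passed 0 of 5 and 0 of 6 with an adjusted p, 0 had an unadjusted p below 0.05, and 0.356% and 0% of all genes passed with edgeR. Over F1 to F3 together 0 of 6 members passed in hrde-1, with log2 fold changes from -0.34 to 0.38, 0 with an unadjusted p below 0.05, 0 by DESeq2, and 0.0152% of 6561 genes past the threshold.

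The difference between the genotypes in their response was tested as an interaction, the hrde-1 response minus the WT response. Over F1 to F3 it was -2.45 ± 0.71 for hsp-16.2, -1.57 ± 0.34 for hsp-16.49, -1.41 ± 0.32 for hsp-16.48, -1.27 ± 0.31 for hsp-16.11 and -1.18 ± 0.33 for hsp-16.1, each of which passed (edgeR, adjusted p from 0.00695 to 0.0312). hsp-16.41 had -1.39 ± 0.62 (adjusted p = 0.177). That makes 5 of 6 members, each below 0 in the fit of all libraries, against 8.61% of all genes in either direction. hsp-16.11, hsp-16.48 and hsp-16.49 passed whichever of the 24 libraries was left out, hsp-16.1 in 18 and hsp-16.2 in 13 of those 24 fits. Without F2 hrde-1 normoxia 1, where the remaining library of that group had 0 counts for it, the value of hsp-16.2 turned to 0.25. Of the 6, only hsp-16.11, hsp-16.48 and hsp-16.49 passed without F1 WT normoxia 2, F1 hrde-1 hypoxia 2, F2 WT normoxia 2, F2 WT hypoxia 1, F2 hrde-1 normoxia 1 or F2 hrde-1 hypoxia 1. Without generation F1 or without generation F3, 0 members passed. By single generation the interaction passed for hsp-16.49 at F1 (-2.92 ± 0.59, adjusted p = 0.0468), where all 6 genes had values from -4.65 to -2.46 and an unadjusted p below 0.05. At F3 it passed for hsp-16.48 (-2.16 ± 0.54, adjusted p = 0.0101) and hsp-16.49 (-1.81 ± 0.58, adjusted p = 0.0425). The backgrounds were 0.0889% of all genes at F1 and 12% at F3, so that the 2 members at F3 are to be read against a common event. The F1 call was lost without any 1 of the 8 F1 libraries (adjusted p 0.0689 to 0.419). At F3, hsp-16.49 passed when 1 library was left out in only 2 of 8 fits, those without F3 WT hypoxia 2 or F3 hrde-1 normoxia 1, and hsp-16.48 in 6, all but those without F3 WT normoxia 2 or F3 WT hypoxia 1. Without F3 hrde-1 normoxia 2, hsp-16.49 was at -0.79 (adjusted p = 0.297) and hsp-16.41 passed with the opposite sign, its remaining library in that group being at 0 counts. At P0 and F2 0 of 6 passed with edgeR and 0 of the 4 and 3 members that DESeq2 gave an adjusted p, with 2 and 0 members at an unadjusted p below 0.05 and 0.0593% and 0% of all genes past the threshold.

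The smaller hrde-1 response went with a higher level under normoxia. At F1, 22G RNA against hsp-16.2 was 3.01 and 2.67 CPM in WT and 62.2 and 50.2 CPM in hrde-1 normoxia, and against hsp-16.41 1.81 and 6.69 CPM and 57.5 and 52.8 CPM. For hsp-16.49 the WT libraries held 40.99 and 18.1 CPM and the hrde-1 libraries 193 and 178 CPM. For these 3 genes the hrde-1 libraries lay far above the WT libraries, with no overlap. The share of all genes without overlap between the genotypes was not counted. All 6 passed, with log2 differences (hrde-1 over WT) of 4.26 ± 0.96 for hsp-16.2, 3.69 ± 0.82 for hsp-16.41 and 2.14 to 2.64 for the cluster (edgeR, adjusted p from 2.81e-05 to 0.00211), against 13.3% of all genes. Leaving out 1 library at a time kept 5 or 6 of these calls. Since this comparison and the F1 WT response share the F1 WT normoxia libraries, a lower response and a different starting level cannot be told apart here.

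The other generations gave fewer calls under normoxia. At P0 hsp-16.1 (2.24 ± 0.46, adjusted p = 0.000906) and hsp-16.11 (1.84 ± 0.42, adjusted p = 0.00305) were higher in hrde-1, 2 of 6 members against 10.5% of all genes. These use the P0 WT normoxia libraries, and the count ran from 0, without P0 hrde-1 normoxia 1, to 4, without P0 hrde-1 normoxia 2, being 1 without P0 WT normoxia 2. With the 4-class library size 6 members passed and the median of all genes was 1.98. At F2 the log2 differences ran from 0.53 (hsp-16.1) to 2.07 (hsp-16.2) and 0 of 6 passed with edgeR, with 5 at an unadjusted p below 0.05, 1 by DESeq2 and 12.7% of all genes past the threshold. Without the shallow library F2 hrde-1 normoxia 2, 4 members passed. At F3 hsp-16.48 (1.72 ± 0.39, adjusted p = 0.00139) and hsp-16.49 (1.67 ± 0.42, adjusted p = 0.00371) were higher in hrde-1, 2 of 6 against 34.7% of all genes. Their F3 hrde-1 normoxia libraries stood apart from each other, at 86.2 and 199 CPM for hsp-16.48 and 60.9 and 186 CPM for hsp-16.49. Without replicate 2 of that group neither gene passed (0.98, adjusted p = 0.0521 for hsp-16.48 and 0.63, adjusted p = 0.228 for hsp-16.49), while hsp-16.41 passed as lower in hrde-1, its remaining library being at 0 counts. Without replicate 1 of that group or without F3 WT normoxia 1, hsp-16.2 passed in addition.

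**Figure D3:**
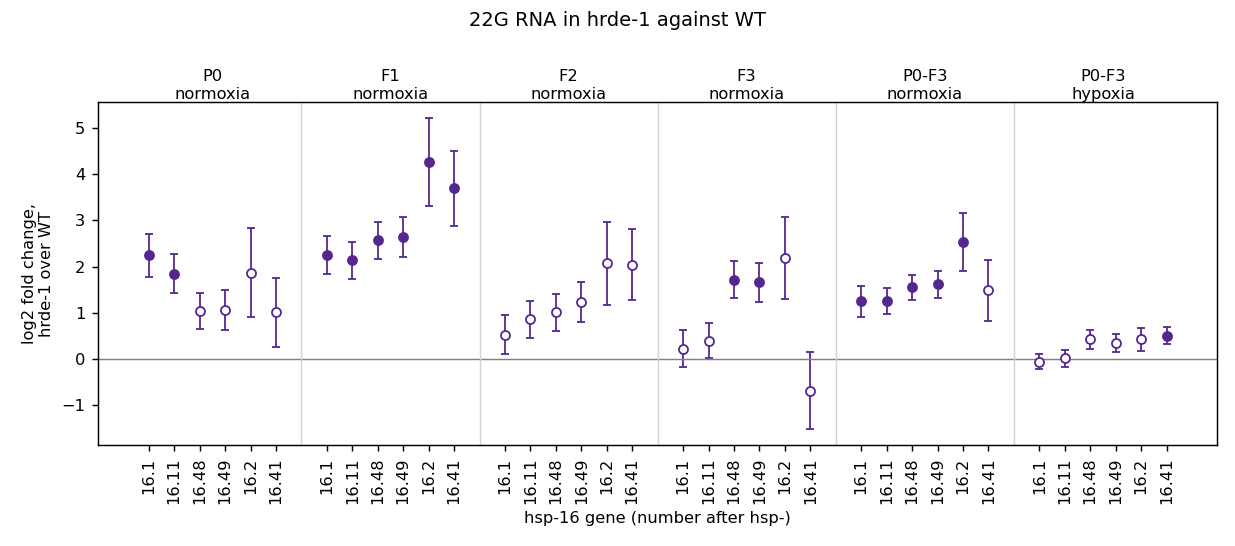
Log2 difference of 22G RNA, hrde-1 over WT, for each hsp-16 gene under normoxia at each generation and, at the right, over all 4 generations under each label; bars are 1 standard error, filled points passed the test and open points did not. All 6 genes passed at F1 normoxia, and the values over 4 generations are lower under hypoxia than under normoxia.

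Over the 4 generations, with 8 libraries of each genotype treated as independent, 5 of 6 members were higher in hrde-1 under normoxia. In hrde-1 normoxia hsp-16.48 ran from a lowest value of 62.4 CPM over a median of 157 CPM to a highest of 239 CPM, against 28.8, 44.6 and 114 CPM in WT normoxia. The lowest, median and highest values of hsp-16.2 were 0, 32.8 and 62.2 CPM in hrde-1 and 0.623, 3.66 and 12.4 CPM in WT. For both genes the 2 genotypes overlapped, for hsp-16.2 through F2 hrde-1 normoxia 2, whose 0 counts allow up to 6.93 CPM, and F3 hrde-1 normoxia 1. The log2 differences were 2.53 ± 0.63 for hsp-16.2, 1.62 ± 0.29 for hsp-16.49, 1.56 ± 0.27 for hsp-16.48, 1.26 ± 0.28 for hsp-16.11 and 1.25 ± 0.33 for hsp-16.1 (edgeR, adjusted p from 0.000245 to 0.00795). hsp-16.41 had 1.49 ± 0.66 (adjusted p = 0.101). The 5 calls stand against 31.9% of 7148 genes tested that passed in either direction, and each held in all 16 fits with a library left out. Without generation F1, 3 members passed.

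Under hypoxia the genotypes were closer. hsp-16.1 ran from 36.8 over a median of 156 to 185 CPM in WT hypoxia and from 56.4 over 117 to 172 CPM in hrde-1 hypoxia. The ranges overlapped, and the log2 difference was -0.05 ± 0.16 (adjusted p = 0.82). hsp-16.41 alone passed, at 0.51 ± 0.18 (edgeR, adjusted p = 0.0261), with 12.63, 29.2 and 46.1 CPM as lowest, median and highest in WT and 16.19, 40.1 and 64.1 CPM in hrde-1. So 1 of 6 members passed against 43.5% of 7096 genes, a smaller share than the background. The call of hsp-16.41 was lost without P0 WT hypoxia 1, P0 WT hypoxia 2, P0 hrde-1 hypoxia 1 or F3 hrde-1 hypoxia 1, without generation P0 or F2 and without the filter on low counts, with adjusted p 0.0185 to 0.0727 over the libraries left out. Without F1 hrde-1 hypoxia 2 or F3 WT hypoxia 1, 2 members passed. With the 4-class library size hsp-16.41 did not pass (0.15, adjusted p = 0.568) and hsp-16.1 passed as lower in hrde-1 (-0.44, adjusted p = 0.0448), where the all-gene median was -0.40.

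Near-identical copies went together in every library. The ratio of hsp-16.1 to hsp-16.11 counts lay between 0.722 and 1.29 with a median of 1.02 over the 32 libraries, and that of hsp-16.48 to hsp-16.49 between 0.730 and 1.59 with a median of 1.06. Across libraries, log2 CPM correlated at 0.98 (Pearson, n = 32) within the first of these pairs and 0.97 within the second, and these points share library, depth and normalisation. The tables list 0 reads as aligned to more than 1 place in every library, so how reads of a shared sequence were placed is not given, and each copy's own level is uncertain. When each near-identical pair was summed before testing, each sum was tested once and its result was counted for both genes. Counted so, the number of members past the threshold changed in 2 of the 27 comparisons. It went from 1 to 2 for the F1 interaction and from 5 to 4 for the WT labels over F1 to F3. Because a sum counts for both its genes, a like count cannot show what shared reads add to the calls. hsp-16.2 and hsp-16.41 are divergent neighbours rather than copies, and their ratio ranged from 0 to 3.56 over the 31 libraries with counts for hsp-16.41 (median 0.714, Pearson 0.72 in log2 CPM over all 32).

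**Figure D4:**
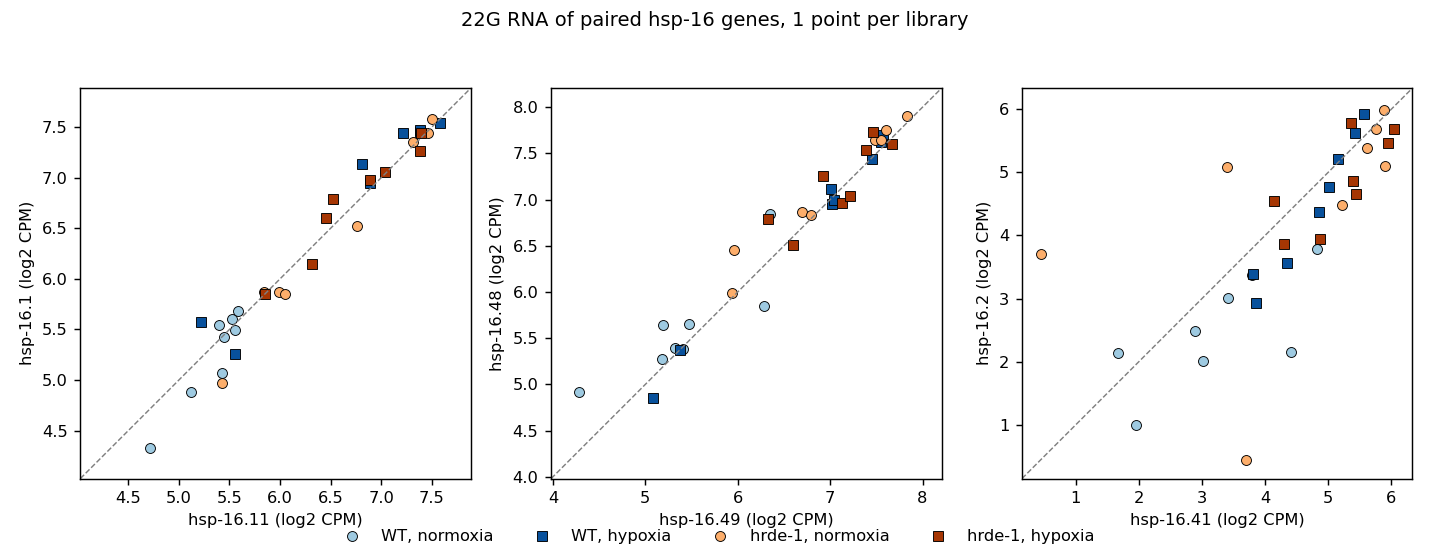
Log2 CPM of 1 gene against its paired gene in the 32 libraries, for hsp-16.1 and hsp-16.11, hsp-16.48 and hsp-16.49, and hsp-16.2 and hsp-16.41; the dashed line marks equal levels. The 2 pairs of near-identical copies lie along the line, and hsp-16.2 and hsp-16.41 scatter around it.

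Between the pairs of copies the balance was not constant. Counts on hsp-16.48 and hsp-16.49, the inner genes of the cluster, were 2.63 and 3.05 times those on the outer copies, hsp-16.1 with hsp-16.11, in the P0 WT normoxia libraries. In both P0 WT hypoxia libraries this ratio was 1.002 and 1.07, and in the 6 WT normoxia libraries of F1 to F3 it was 0.748 to 1. F3 hrde-1 normoxia 2 had 3.19, against 1.30 in replicate 1 of that group. The other libraries lay between 0.727 and 1.83, with a median of 1.17 over all 32. The P0 WT normoxia values rest on 126 and 64 counts for the inner genes and 48 and 21 for the outer ones, and that of F3 hrde-1 normoxia 2 on 672 and 211.

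**Figure D5:**
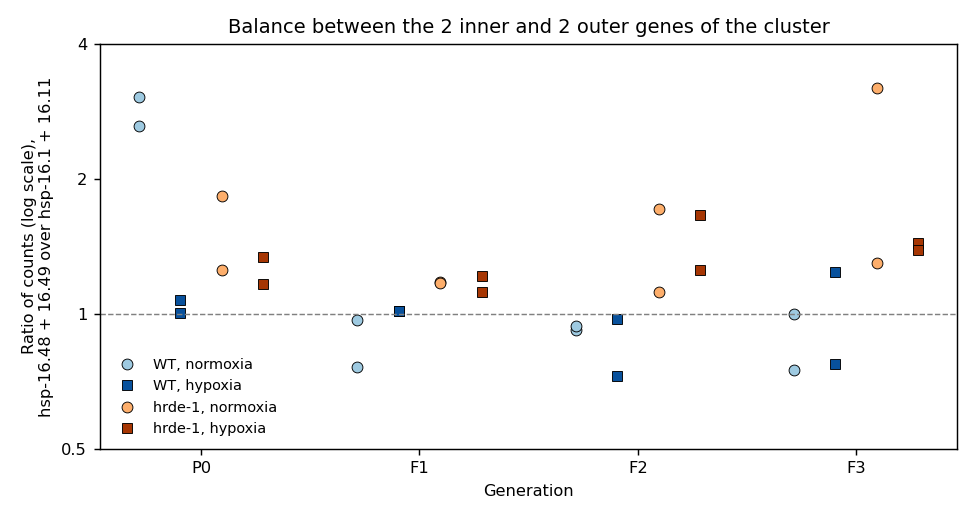
Ratio of the counts on hsp-16.48 plus hsp-16.49 to those on hsp-16.1 plus hsp-16.11, on a log axis, for each library by generation, genotype and label. Most libraries lie between 0.727 and 1.83; both P0 WT normoxia libraries and F3 hrde-1 normoxia 2 lie at 2.63 to 3.19.

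Other small heat shock protein genes had little 22G RNA: of 10 listed, 2 passed the filter in the fit of all groups, and 0 passed in any of the single-generation comparisons of the labels. Over the 4 generations sip-1, a small heat shock protein gene of the germline and embryo, was the 1 gene of this list tested. It was higher in hrde-1 under normoxia (0.63 ± 0.21, adjusted p = 0.0341) and under hypoxia (1.22 ± 0.15, adjusted p = 2.2e-06), where 31.9% and 43.5% of all genes passed. Of the large chaperone genes, 10 were tested. hsp-110, which encodes an Hsp110-type chaperone, rose in F1 WT (1.86 ± 0.37, adjusted p = 0.0207), 1 of 10 against 0.168% of all genes. The list median there was 0.65 on the log2 scale, against -0.0048 over all genes and 2.5 for the 6 members. Over F1 to F3 in WT hsp-110 was higher (0.94 ± 0.21, adjusted p = 0.0178) and hsp-3, an Hsp70 of the endoplasmic reticulum, lower (-0.69 ± 0.18, adjusted p = 0.0357). These are 2 of 9 tested, against 5.79% of all genes. In F3 hrde-1, where 21.6% of all genes passed, 4 of 10 did so between the labels. hsp-90, the Hsp90 gene, and the Hsp70 genes F44E5.4 (2.94 ± 0.73) and F44E5.5 (2.78 ± 0.72) were higher, and the Hsp70 gene hsp-70 was lower. With only the compared groups fitted, 0 of all genes passed. The 2 F3 hrde-1 normoxia libraries differed more than those of any other group, with a chi-square per degree of freedom of 39.1 against a median of 6.09. Under normoxia hsp-110 was also higher in hrde-1 than in WT (1.26 ± 0.22, adjusted p = 0.000192), as was the constitutive Hsp70 gene hsp-1 (0.49 ± 0.15, adjusted p = 0.0161), 2 of 9 against 31.9% of all genes. Under hypoxia hsp-110 and hsp-4 were higher and hsp-6 and hsp-90 lower in hrde-1, 4 of 9 against 43.5% of all genes.

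Genes known to act on hsp-16 transcription were read from a list of 17, of which 16 were in the table. Of 15 tested in the fit of all groups, 0 passed between the labels in WT at P0, F1, F2 or F3, and their medians lay between 0.01 and 0.08 on the log2 scale. In hrde-1, 0 passed between the labels at P0, F1 and F2. At F3 in hrde-1 4 were higher (hpk-1, daf-2, skn-1 and sir-2.1), where 21.6% of all genes passed, and 0 of all genes with only the compared groups fitted. Between genotypes under normoxia 5 of 14 passed, a share near the 31.9% of all genes. Of these 1 was higher in hrde-1, hsb-1, whose product binds and restrains HSF-1 (1.30 ± 0.18, adjusted p = 1.53e-05). There 4 were lower: vhl-1 (-3.79 ± 0.77, adjusted p = 0.000843) and egl-9 (-1.38 ± 0.43, adjusted p = 0.0192), which act in the turnover of the hypoxia factor HIF-1, the FOXO factor gene daf-16 (-0.80 ± 0.21, adjusted p = 0.00609) and the insulin receptor gene daf-2 (-0.57 ± 0.20, adjusted p = 0.0357). Under hypoxia 2 of 13 were higher in hrde-1 (hsb-1 and sir-2.1) and 4 lower, again a share near the 43.5% of all genes called. hsf-1 itself was among the lower ones (-0.41 ± 0.11, adjusted p = 0.00385). The hrde-1 gene had 22G RNA at 245 to 689 CPM. Its log2 difference, hrde-1 over WT, was -0.28 ± 0.13 over the 4 generations under normoxia (edgeR, adjusted p = 0.118). Under hypoxia it passed as lower in hrde-1 (-0.75 ± 0.10, adjusted p = 7.92e-06). By single generation under normoxia it passed as lower at F2 (-0.62 ± 0.20, adjusted p = 0.0371) and F3 (-0.58 ± 0.19, adjusted p = 0.023), and not at P0 or F1. None of these values checks the genotype, since no mRNA was measured.

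The genes whose pattern over the 16 group means was most like the mean of the 6 members were tsn-1 and msh-5 (Pearson r = 0.87 for both), C39E9.12 (0.86), ZK829.7 (0.85) and mbf-1 (0.82), out of 10115 other genes tested. tsn-1 encodes a Tudor staphylococcal nuclease, msh-5 a MutS homologue of meiotic recombination and mbf-1 a transcriptional coactivator. Over the 32 single libraries the same genes had r from 0.64 to 0.72 and ranked from 8 to 39, so the order depends on the measure. Among the large chaperone genes, F44E5.4 and F44E5.5 ranked 11 and 12 over the group means (r = 0.80 and 0.79). There hsp-110, hsp-70 and hsp-1 ranked 81, 458 and 825. The mean of mbf-1 was 101.9 ± 13.4 CPM (SD, n = 2) under the hypoxia label at F1 in WT, against 46.4 ± 11.9 CPM for its normoxia counterpart. This difference did not pass (1.13 ± 0.33, edgeR, adjusted p = 0.34). Those of tsn-1, msh-5, C39E9.12 and ZK829.7 were smaller, at 0.45 to 0.83, and did not pass either. These genes were chosen for this pattern, so their levels are a description. The pattern least like the members was that of F25H5.2 (r = -0.80), which held a mean of 3.11 CPM.

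Tissue lists were read as 22G RNA against their genes, not as mRNA. 22G RNA against 12 oocyte genes was counted in every group and summed to 538 to 1137 CPM per library. In F1 WT it was 559 to 642 CPM under normoxia and 709 to 712 CPM under hypoxia, and 0 of 12 genes passed between these labels. In F1 hrde-1 normoxia it was 832 to 866 CPM, above F1 WT normoxia without overlap. Between these genotypes 1 of the 12 oocyte genes passed, rme-2 (1.25 ± 0.32, edgeR, adjusted p = 0.00678), against 13.3% of all genes. The median of the 12 was 0.48 on the log2 scale. Against 32 sperm genes the sum was 474 to 587 CPM in F1 WT normoxia, 467 to 555 CPM in F1 WT hypoxia and 86.6 to 134.5 CPM in F1 hrde-1 normoxia. The sum at F1 was thus lower in hrde-1 normoxia. Of the 13 sperm genes tested there 1 passed, spe-41, a calcium channel gene of sperm (-3.19 ± 0.27, adjusted p = 8.34e-10), while the median of the 13 was 0.28, against 13.3% of all genes called and an all-gene median of -0.02. The sums for 13 intestine genes ran from 0.573 to 95.3 CPM, for 10 muscle genes from 0 to 62.2 CPM and for 10 cuticle genes from 0 to 26.4 CPM, with 1 to 9, 2 to 8 and 5 to 10 of the genes at 0 in both libraries of a group. The part of these differences in the hsp-16 values was not tested.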

How the data were processed

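Small RNA from whole worms was isolated with mirVana reagents, per the labels' protocols. Of this RNA, 500 ng was treated with RppH, which removes the 5′ triphosphate that would block ligation of 22G RNA, at 37 °C for 30 min, and a Nextflex Small RNA-seq v3 kit gave libraries that were read to 85 bp. The submitters' processing notes name FastQC, cutadapt 2.5, featureCounts and edgeR. Aligner, genome build and strand setting are not given in the sources used here. Antisense 22G reads and sense fragments of these genes therefore cannot be told apart in the tables.

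The deposited 22G table holds counts per gene, not normalised. Estimated counts, with steps of 1 in 3, make up 24.5% and 23.6% of the gene values deposited for F2 WT normoxia 1 and 2, and these were rounded to whole numbers. Its 5 summary entries, 28.07% to 35.95% of the table, were left out, as were 23976 genes with no count. No library duplicated another.

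All 16 groups were fitted together with edgeR 4.0.16 (R 4.3.3, limma 3.58.1), with TMM scaling, a low-count filter (minimum count 10) and quasi-likelihood tests on 10121 genes. Comparisons over several generations used the libraries of the groups compared, with generation as a term. log2 CPM used a prior count of 2. p-values were adjusted by Benjamini-Hochberg over all genes tested. In fits with 1 library left out, its group holds 1 library that is assumed to vary like the others. Error ranges are 2 standard errors, and limits from a count of 0 (3 counts) cover counting error only. The test was also run on simulated counts that gave each gene the same spread in all groups. That run does not cover unequal spread between groups, where the chi-square per degree of freedom between libraries was 1.96 to 39.1. DESeq2 1.42.0, other scalings, filters and fits were alternatives. The 6 members and the gene lists were chosen with earlier results of these data known. Named were the members, list genes that passed (up to 4 per comparison), the 5 genes most like the members, the 1 least like them and the nearest neighbours. daf-2, rme-2 and spe-41 were added after their values were seen. Replicate numbers were not used to pair libraries in the main fits. Sequences are not shown here.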

Additional observations from a re-analysis of the deposited data

Results flagged for a closer look

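Of 48 sets of 6 or 8 libraries of 1 genotype and label (6 genes, 8 sets each), 3 held a library far from the others, and chance alone flags about 1 in 20. hsp-16.48 stood at 114 CPM in P0 WT normoxia 1, and the next highest of the 8 WT normoxia libraries had 56.01 CPM. hsp-16.49 stood at 18.1 CPM in F1 WT normoxia 2, below 34.9 CPM in the next of the 6 WT normoxia libraries of F1 to F3. hsp-16.2 stood at 53.8 CPM in F1 hrde-1 hypoxia 1, above 27.8 CPM in the next of the 6 hrde-1 hypoxia libraries of F1 to F3.

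The response to the hypoxia label passed as different between the genotypes, by the test of that difference itself, in 8 cases. Of all genes, 0.0889% passed this test at F1, 12% at F3 and 8.61% over F1 to F3. The value over F1 to F3 is the mean of those at F1, F2 and F3, so the 8 cases are not independent. Their dependence on single libraries is given above. On the log2 scale, hrde-1 minus WT, the difference was -2.92 for hsp-16.49 at F1, -2.16 for hsp-16.48 and -1.81 for hsp-16.49 at F3. Over F1 to F3 it was -1.18 for hsp-16.1, -2.45 for hsp-16.2, -1.27 for hsp-16.11, -1.41 for hsp-16.48 and -1.57 for hsp-16.49. Between generations, the hrde-1 response of hsp-16.41 was 3.78 higher at F3 than at F2, where 1 F3 hrde-1 normoxia library had 0 counts for this gene.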

How the results depend on the processing

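Values are members past the threshold, of 6, and the cause of a change was not tested. The DESeq2 Wald test, which gave no adjusted p for 1 to 3 members in 8 of the 27 comparisons, gave 4 for the F1 interaction, 1 for the genotypes at F2 normoxia and 1 for the WT response from F1 to F2. DESeq2 size factors gave 0 for the F1 interaction. Without the filter on low counts there were 6 for the F1 interaction, 3 and 1 for the WT response from F1 to F2 and from F2 to F3, 3 for the WT labels over F1 to F3 and 0 for the genotypes under hypoxia. Summing near-identical members, with each sum counted for both its genes, gave 2 for the F1 interaction. Fits of only the compared groups gave 4 for the WT labels at P0 and 0 at F3, 0 for the hrde-1 labels at F3, 6 and 0 for the interaction at F1 and F3, 1 and 0 for the genotypes at P0 and F3 normoxia, 3 and 5 for the WT response from P0 to F1 and from F1 to F2, and 0 for the hrde-1 response from F2 to F3. Without the F3 libraries, edgeR gave 1 for the WT labels at P0, 6 for the F1 interaction, 4 and 4 for the genotypes at P0 and F2 normoxia and 1 for the WT response from P0 to F1. Rounding the fractional values down changed no call.

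With the sum of the 4 small RNA classes as library size, the count was 6, 1 and 0 for the WT labels at P0, F1 and F3, 5, 0 and 1 for the interaction at P0, F1 and F3, 6 for the genotypes at P0 normoxia and 2 for the WT response from P0 to F1. That last response changed sign for hsp-16.1 (-2.49) and hsp-16.11 (-2.04), beside a median of all genes of -2.61. The same median was -2.32 for the P0 interaction, 0.11 and 0.38 for the WT labels at F1 and F3, and between -0.66 and 0.44 in the comparisons without P0 WT normoxia.

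With the replicate number as a block, 1 member passed for the WT labels at P0 and 1 at F3, 0, 1 and 2 for the interaction at F1, F3 and over F1 to F3, 0 for the genotypes at F3 normoxia, 0 for the hrde-1 response from F2 to F3, 0 for the WT labels over F1 to F3 and 0 for the genotypes under hypoxia. Within a generation and genotype, deviations of same-numbered libraries under the 2 labels correlated at -0.01 to 0.04 over genes. Counting error lowers such a correlation, so it cannot show that the libraries are unpaired. Pairing across generations was not examined. Leaving out whole generations was chosen after seeing the data: without F1, the interaction over F1 to F3 and the WT labels gave 0 each and the genotypes under normoxia 3; without F3 they gave 0 and 2, and the genotypes under hypoxia 2; without F2 or P0 the last was 0.

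Leaving out 1 library at a time gave 0 to 1 for the WT labels at P0, 0 to 0 at F1 and 0 to 4 at F3, 0 to 2 for the hrde-1 labels at F3, 0 to 0, 0 to 2 and 3 to 6 for the interaction at F1, F3 and over F1 to F3, 0 to 4, 0 to 4 and 1 to 3 for the genotypes at P0, F2 and F3 normoxia, 0 to 1 for the hrde-1 response from F2 to F3, 0 to 6 for the WT labels over F1 to F3 and 0 to 2 for the genotypes under hypoxia. The interaction over F1 to F3 for hsp-16.2 ranged from -3.38, without F3 WT normoxia 1, to 0.25, without F2 hrde-1 normoxia 1, when the remaining library of that group held 0 counts. Each group had 2 libraries, and median counts were 28.5 for hsp-16.2 and 34 for hsp-16.41, against 102 to 166.5 for the cluster genes; the part of depth in the calls was not tested.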
